A study of Mus musculus with 96 samples.

Results

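The mitochondrial genome of the mouse carries 13 protein genes, 2 rRNA genes and 22 tRNA genes. All 37 were taken by their place on chromosome M (symbols that start with mt-), out of 50944 genes that the deposited tables list, and no measured value was used to choose them. The protein genes encode subunits of the respiratory chain: mt-Nd1 to mt-Nd6 and mt-Nd4l of complex I (NADH dehydrogenase), mt-Cytb of complex III, mt-Co1, mt-Co2 and mt-Co3 of complex IV (cytochrome c oxidase), and mt-Atp6 and mt-Atp8 of the ATP synthase. The remaining subunits come from nuclear genes and are imported. Both strands of the circular genome are transcribed from start to end into long precursors, from which the tRNAs are cut out and so free the mRNAs and rRNAs between them. Heart muscle is densely packed with mitochondria and draws most of its ATP from oxidative phosphorylation. Fibroblasts and most blood leukocytes hold far fewer mitochondria.

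The study followed 4 cell types of the heart of male C57Bl/6J mice through acute myocardial infarction. Hematopoietic cells (HC), fibroblasts (FB), endothelial cells (EC) and cardiomyocytes (CM) came from mice without surgery (Day 0) and from mice whose left anterior descending coronary artery had been tied off for good, on Day 1, 3, 7, 14 and 28, so that no sham-operated group stands beside the ligated ones. CM were enriched by repeated slow centrifugation, EC and HC by magnetic beads, and FB by adhesion to plastic. Each of the 24 groups had 4 libraries of total RNA depleted of rRNA, and each library pooled RNA of 3 mice per the labels, or of fewer where a sample was missing per the methods of the study. The pools of the 4 cell types at a given day came from the same animals, per the methods of the study, and p-values here measure only the spread between pools. Each cell type was a library preparation batch of its own, so that cell type and batch cannot be told apart.

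The order of the genes on the circle bears on what short reads can separate, and the sequences below (GRCm38 coordinates, from the GENCODE M21 transcripts, each written 5′ to 3′ on its own strand) show where neighbours share bases. The transcripts of mt-Atp8 and mt-Atp6 overlap by 43 bases on the same strand, shown in capitals at the end of the first and at the start of the second. mt-Nd5 and mt-Nd6, the only protein gene read from the other (light) strand, overlap by 14 bases, which are complementary and are shown in capitals. The tRNA gene mt-Ts1 lies opposite to mt-Co1 and mt-Tq opposite to the tRNA gene mt-Ti, each with 3 bases (capitals) that belong to both genes. mt-Ty, another light-strand tRNA, overlaps no gene and is shown because it moved with mt-Ts1 and mt-Tq.
mt-Atp8, chrM:7900-7969, plus strand: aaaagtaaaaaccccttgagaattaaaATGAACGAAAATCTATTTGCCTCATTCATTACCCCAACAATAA
mt-Atp6, chrM:7927-7996, plus strand: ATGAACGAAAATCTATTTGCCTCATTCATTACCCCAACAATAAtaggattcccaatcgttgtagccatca
mt-Nd5, chrM:13506-13565, plus strand: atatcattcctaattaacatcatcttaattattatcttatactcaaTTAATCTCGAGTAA
mt-Nd6, chrM:13552-13611, minus strand: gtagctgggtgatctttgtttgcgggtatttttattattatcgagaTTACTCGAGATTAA
mt-Ts1, chrM:6870-6938, minus strand: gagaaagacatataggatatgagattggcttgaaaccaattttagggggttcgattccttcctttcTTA
mt-Tq, chrM:3772-3842, minus strand: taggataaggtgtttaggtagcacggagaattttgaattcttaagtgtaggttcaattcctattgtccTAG
mt-Ty, chrM:5260-5326, minus strand: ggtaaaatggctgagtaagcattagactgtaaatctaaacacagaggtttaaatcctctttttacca

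Whether the counting used strand is not given in the sources used here, so reads over these shared bases, and reads of a precursor that runs across a gene on its opposite strand, cannot be assigned with certainty. A second kind of uncertainty comes from copies of mitochondrial DNA in the nuclear genome. Gm29216 on chromosome 1 is nearly identical to a stretch of mt-Co1. Over 483 aligned bases it has 1 mismatch, A1066T (position 1066 from the first base of mt-Co1, first the base of mt-Co1), shown as the capital letter in the lines that follow. The first bases of the copy lie outside the aligned stretch.
mt-Co1, chrM:6369-6417, plus strand: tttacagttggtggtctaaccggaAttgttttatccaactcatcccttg
Gm29216, chr1:24616161-24616197, minus strand: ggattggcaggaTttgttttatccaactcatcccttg
The reads assigned to Gm29216 came to a median of 9.42% of those of mt-Co1 in HC libraries, 9.32% in CM, 9.0% in FB and 3.52% in EC. The share was uneven between libraries. In EC it was 10.8% to 18.4% at Day 3 and at most 0.00731% in the 4 libraries of Day 7, and in HC Day 28 replicate 4 it reached 90%. Another 10 nuclear genes of this kind took at most 0.0281% (median of a cell type) of the reads of their mitochondrial counterpart. With the reads of all these copies added to the mitochondrial genes, 94 of 94 gene results kept their direction and their call, and 1 protein gene was called in CM on each of Days 1 and 7, where none is without them.

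A library held 13490754 to 55693039 gene reads in CM, 16169980 to 40345634 in HC, 12409280 to 33774582 in EC and 2663759 to 36505110 in FB. The lowest library of each cell type carried more of its own 4 markers than any library of another type, in FB by the smallest margin (511 against 407 CPM outside rRNA genes). The CM markers stood at 6049 in the lowest CM library and reached 2920 in a library of another type. The mitochondrial rRNAs took 53.1% to 63.5% of all reads in CM, 6.23% to 24.4% in HC, 10.3% to 24.4% in EC and 2.20% to 8.71% in FB. Summed levels are therefore given per reads outside rRNA genes. Single genes are given in CPM, read counts scaled to a common library size after TMM scaling, and changes as log2 fold changes ± SE from the edgeR quasi-likelihood test, called at an adjusted p under 0.05. In 8 libraries (replicates 2 and 4 of HC Day 28, replicate 4 of FB Day 28, replicates 2 and 3 of FB Day 3, replicate 3 of EC Day 28 and replicates 1 and 2 of EC Day 0), which an earlier analysis of these data had set apart for other transcripts, the light-strand genes stood far above the rest, and the counts and values below that moved without them are given both ways. The study itself removed 2 FB Day 3 replicates and 1 HC Day 28 replicate of total RNA as outliers by principal component analysis. It does not give their numbers, and all 4 libraries of both groups are used here unless stated.

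In uninjured hearts the mitochondrial mRNAs were most abundant in CM and scarcest in FB. The 13 protein genes took 51.2%, 38.1%, 54.8% and 43.6% of the reads outside rRNA genes in the 4 CM libraries of Day 0 (46.9% ± 7.51, SD, n = 4). In EC the sum was 22.3%, 28.3%, 20.7% and 24.6% (24% ± 3.30). In HC it was 12.5%, 17.4%, 15.6% and 13.4% (14.7% ± 2.20), and in FB 3.38%, 3.80%, 2.91% and 3.77% (3.47% ± 0.417). No library of one cell type overlapped those of another. In one edgeR fit over all 96 libraries, CM Day 0 was set against the other 3 cell types, averaged. All 13 protein genes were higher, with a median log2 difference of 3.65 (all genes tested: -0.71), in a contrast in which 67.4% of genes were called. The difference was largest for mt-Nd2 (4.22 ± 0.20) and smallest for mt-Nd6 (1.42 ± 0.32), and the rRNA mt-Rnr1 was higher by 5.40. FB lay lower for all 13 (median -3.37, 57.2% of genes called), most for mt-Nd2 (-3.79). HC lay lower for all 13 by less (median -0.77, 54.7% called), and EC were higher for 6 (median 0.40, 53.9% called), led by mt-Nd6 (2.16 ± 0.31), whose level in EC rested on replicates 1 and 2. Without the 8 libraries, EC were higher for 3 genes, mt-Nd5 (0.76), mt-Nd4 (0.65) and mt-Cytb (0.52), with a median of 0.26 (43.7% of genes called) and with mt-Nd6 at 0.14. HC were then lower for 12, without mt-Nd6 (59.2% called), and the counts for CM and FB stayed at 13 (67.7% and 61.4% called). In pooled cells, fewer cells of a type and less RNA per cell cannot be told apart.

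Within the pool of reads from the 13 protein genes, levels per kb fell into tiers that were shared by the cell types. Each protein gene is counted as an mRNA of its own here. This also holds where neighbours overlap with no tRNA gene between them, as mt-Atp8 and mt-Atp6 do, and mt-Nd4l and mt-Nd4 (7 bases). mt-Co3, mt-Co2, mt-Co1, mt-Atp6 and mt-Atp8 each held 10.02% to 16.6% of the summed reads per kb in every cell type at Day 0. mt-Nd1, mt-Nd3, mt-Cytb, mt-Nd4 and mt-Nd2 held 3.39% to 7.01%. mt-Nd4l and mt-Nd5 held 2.03% to 3.14%. The light-strand gene mt-Nd6 came last in each cell type, at 1.29% in EC, 0.75% in FB, 0.50% in HC and 0.17% in CM. The EC value rested on replicates 1 and 2, which are libraries set apart. In the 21 EC libraries of all days that were not set apart, mt-Nd6 held 0.31% to 0.63%. The order inside these tiers varied with the cell type. mt-Atp8 held 15.02% in CM and 10.02% in FB, whereas mt-Atp6, which overlaps it, held 12.09% in CM and 16.64% in FB. The ratio of mt-Atp8 to mt-Atp6 per kb was 1.18, 1.22, 1.39 and 1.18 in CM and 0.640, 0.595, 0.586 and 0.588 in FB. These ranges did not overlap. Whether the ratio reflects RNA levels or how reads fall on the 204 bases of mt-Atp8 was not tested. mt-Nd2 was likewise a larger part of the pool in CM (5.68%) than in EC (4.36%), HC (4.11%) and FB (3.39%). Deposited TPM gave another picture, because the effective length behind TPM was 10 bases for mt-Atp8. On TPM, mt-Atp8 alone made up 56.6% of the 13 in CM, 52.0% in FB, 51.2% in HC and 51.0% in EC, and mt-Nd6 came to 0.769% (CM), 6.97% (EC, again resting on replicates 1 and 2), 4.75% (FB) and 2.76% (HC) of the mean of the other 12. Reads per kb of annotated length are therefore used for levels between genes.

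**Figure D1:**
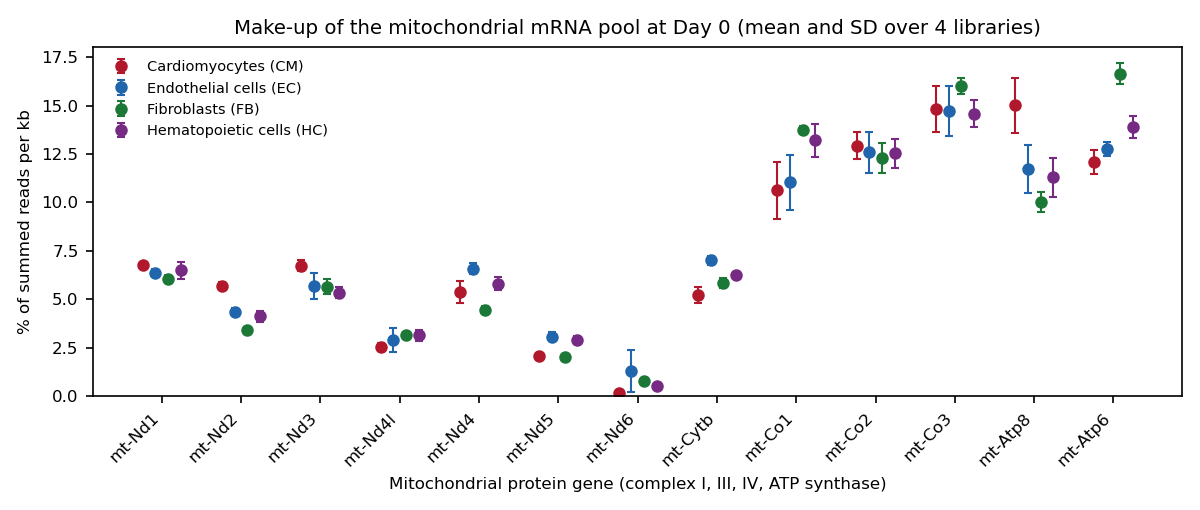
Share of each of the 13 mitochondrial protein genes (horizontal axis, ordered by respiratory complex) in their summed reads per kb (vertical axis, percent) at Day 0, with points for the mean and bars for the SD of 4 libraries in CM, EC, FB and HC. The complex IV and ATP synthase genes lie between 10.02% and 16.6%, and mt-Nd6 lies lowest in every cell type, at 0.17% in CM.

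In CM, the mitochondrial mRNAs were lower at Day 3 by read counts, and mt-Co1 changed most clearly. The sum of the 13 was 42.8%, 33.4%, 42.5% and 24.1% at Day 3 (35.7% ± 8.90), a ratio of 0.761 to Day 0, and the days overlapped. They overlapped with Day 0 on every other day too, at ratios from 0.832 (Day 28) to 0.912 (Day 7). By edgeR, 9 of the 13 genes were lower and none higher at Day 3 (median -0.58, all genes -0.06), in a comparison that called 30.5% of all genes and 14.6% as lower. mt-Co1, the catalytic subunit of complex IV, had 45761, 39820, 51623 and 38942 CPM at Day 0 and 23834, 21197, 19027 and 18361 at Day 3, with no overlap (-1.10 ± 0.17, adjusted p = 1.96e-05, edgeR). The small complex I subunit gene mt-Nd4l fell from 1933, 1627, 2630 and 1934 CPM to 1160, 934, 896 and 694, the largest change among the called (-1.14 ± 0.21, adjusted p = 0.000244, edgeR). Its groups did not overlap either. mt-Nd5, a membrane subunit of complex I, went from 9785, 7777, 14525 and 9424 CPM to 6372, 4627, 5474 and 3977 (-1.02 ± 0.21). These 3 genes were the ones that were also lower at Day 3 than at Day 1, and higher again at Day 7 than at Day 3. The other 6 calls were weaker: mt-Nd4 (-0.75), mt-Atp8 (-0.70), mt-Nd1 (-0.61), mt-Atp6 (-0.58), mt-Cytb (-0.57) and mt-Co3 (-0.50), the last 3 with adjusted p between 0.0434 and 0.0481 in edgeR. On log2(TPM + 1) the changes of these 3 were above 0. So was the median of the 13 genes (0.12, all genes 0.11), with only 4 of 13 changes below 0.

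mt-Nd2 (-0.52), mt-Co2 (-0.40), mt-Nd3 (-0.30) and mt-Nd6 (-0.51 ± 0.26) did not pass the test in CM at Day 3. mt-Nd6 had 222, 167, 283 and 260 CPM at Day 0 and 158, 222, 105 and 169 at Day 3, and the days overlapped. Nor did a protein gene pass it on Day 1 (11.4% of all genes called, 4.58% lower), Day 7 (13.3%, 4.33% lower) or Day 14 (13.8%, 5.71% lower), where edgeR gave 2, 4 and 6 of 13 at an unadjusted p under 0.05 and DESeq2 called 1, 2 and 1. The medians were -0.30, -0.39 and -0.46. At Day 28, mt-Co1 alone was lower, with 30727, 33510, 20239 and 28535 CPM (-0.64 ± 0.16, adjusted p = 0.0334, edgeR, 3.58% of genes called, 1.09% lower). Single libraries weighed on these counts. Without Day 0 replicate 3, Day 3 replicate 2 or Day 3 replicate 4 there were 3 calls at Day 3 in place of 9, without Day 0 replicate 1 there were 4, and the call of mt-Co1 at Day 28 was lost without Day 0 replicate 1, 3 or 4 or Day 28 replicate 3 or 4. Scaling on genes outside rRNA and mitochondrial genes left 6 calls at Day 3, and limma on log2(TPM + 1) left none.

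**Figure D2:**
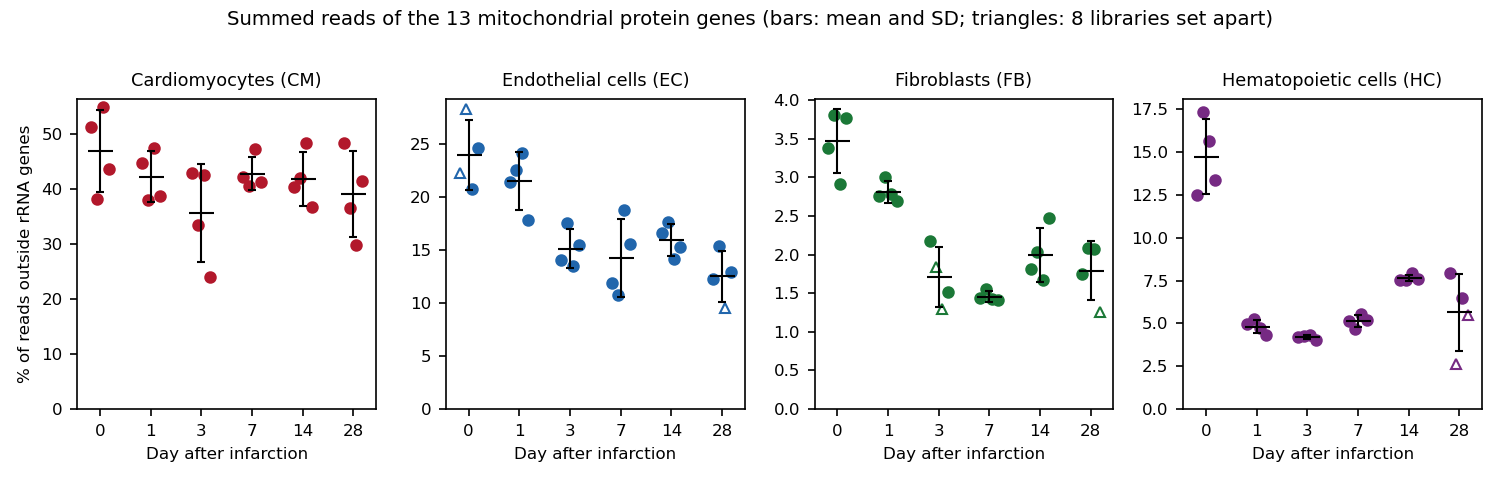
Summed reads of the 13 mitochondrial protein genes as a percent of the reads outside rRNA genes (vertical axis, from 0, a scale of its own in each panel) against the day after infarction, with a point for each library, bars for the mean and SD of 4 libraries and open triangles for the 8 libraries set apart. CM days overlap Day 0 throughout, EC and FB lie below Day 0 from Day 3 onward, and HC lie below it from Day 1.

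In EC, the mitochondrial mRNAs declined from Day 3 and were lowest at Day 28, and they did not decline in step. The sum was 21.5%, 22.6%, 24.2% and 17.8% at Day 1, overlapping Day 0. It was 14.1%, 17.5%, 13.5% and 15.5% at Day 3 and 12.3%, 15.4%, 9.55% and 12.9% at Day 28 (12.5% ± 2.40), and every library from Day 3 onward lay below every Day 0 library, at ratios of 0.632, 0.595, 0.665 and 0.522 to Day 0. By edgeR, 10 of 13 were lower at Day 3 (median -0.78), 13 at Day 7 (-1.06), 12 at Day 14 (-0.98) and 13 at Day 28 (-1.41). Among all genes tested, 45.5%, 37.6%, 27% and 33.7% were called on these days, and 22.3%, 19.6%, 14.3% and 17.4% as lower. At Day 1, mt-Nd6 alone was called (19% of all genes called, 9.11% lower). Without the 3 EC libraries set apart, the calls came to 0, 7, 10, 6 and 10 over the 5 days, all lower. In that fit 6.53%, 31.4%, 22.2%, 9.6% and 17.3% of all genes were called.

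The EC genes that fell most by Day 28 were mt-Atp8 and mt-Nd2. mt-Atp8, a small ATP synthase subunit, had 5572, 7153, 5316 and 7082 CPM at Day 0 and 4151, 6690, 4111 and 5205 at Day 3, which overlapped (-0.32, not called). At Day 28 it had 1430, 1792, 1000 and 1272 CPM, all below Day 0 (-2.19 ± 0.25, adjusted p = 2.69e-06, edgeR). mt-Nd2, a complex I subunit gene, went from 10618, 14767, 9961 and 12443 CPM at Day 0 to 3161, 4062, 2155 and 2767 at Day 28 (-1.98 ± 0.25), again with no overlap. mt-Nd3, another complex I subunit gene, took a different course. It fell most of the called genes on the heavy-strand transcript at Day 3, from 5029, 7426, 4287 and 4312 CPM to 1796, 2683, 1878 and 2241 (-1.29 ± 0.21, adjusted p = 4.61e-05, edgeR), and stood at -1.09 ± 0.21 at Day 28. mt-Cytb, the mitochondrial subunit of complex III, moved between these, from 20246, 27561, 17199 and 20043 CPM to 9998, 15034, 9950 and 12342 at Day 3 (-0.85 ± 0.21) and 7237, 9677, 5407 and 8089 at Day 28 (-1.48 ± 0.21). Its 4 libraries lay below Day 0 on both days.

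mt-Co1 fell least in EC at Day 28, among those called. It had 37461, 51706, 37974 and 52195 CPM at Day 0, 27334, 25923, 24431 and 26829 at Day 3 (-0.78 ± 0.20, adjusted p = 0.00297, edgeR) and 25940, 33114, 19253 and 26834 at Day 28 (-0.77 ± 0.20, adjusted p = 0.00474, edgeR). Both days lay below Day 0. At Day 7 it was just past the threshold (-0.53 ± 0.20, adjusted p = 0.0389, edgeR), and it lost that call without any of 9 single libraries, among them Day 0 replicates 2 and 4. Without the 3 EC libraries set apart, mt-Co1 passed on neither Day 7 (-0.54) nor Day 28 (-0.66). mt-Atp6 went from 20786, 28609, 18928 and 23540 CPM at Day 0 to 10193, 11635, 6180 and 9694 at Day 28 (-1.28 ± 0.22), with no overlap. Its calls at Days 3 and 14 were lost without the 3 libraries (-0.51 and -0.62). On log2(TPM + 1), mt-Atp6 at Days 7 and 14, mt-Co1 at Days 7 and 28, mt-Cytb at Days 7 and 14 and mt-Nd4l at Day 14 had changes above 0.

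The make-up of the EC pool shifted with time. The share of mt-Atp8 in the summed reads per kb was 11.72% at Day 0, 15.67% at Day 3 and 6.43% at Day 28, and that of mt-Nd2 was 4.36%, 5.01% and 2.78%. mt-Co1 went the other way, from 11.03% at Day 0 to 16.27% at Day 28, and mt-Co3 from 14.71% to 18.40%. The ratio of mt-Atp8 to mt-Atp6 per kb, 2 overlapping genes with no tRNA gene between them, was 0.895, 0.835, 0.937 and 1.00 at Day 0. At Day 3 it was 1.04, 1.22, 1.09 and 1.15, above every Day 0 library, and at Day 28 it was 0.468, 0.514, 0.540 and 0.438, below every one. Day 7 and Day 14 lay below Day 0 as well, at 0.688 and 0.636 of its mean. The ratio of mt-Nd2 to its neighbour mt-Nd1 was 0.668, 0.649, 0.676 and 0.749 at Day 0 and 0.437, 0.434, 0.447 and 0.381 at Day 28, and that of mt-Co1 to mt-Cytb rose from 1.37, 1.39, 1.63 and 1.93 to 2.65, 2.53, 2.64 and 2.46. Neither pair of days overlapped. These ratios are descriptions with no test, and without the 3 EC libraries set apart the same days lay above or below Day 0.

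In FB, the mitochondrial mRNAs were lower from Day 3 onward, most at Day 7. The sum was 2.75%, 3.01%, 2.78% and 2.69% at Day 1, which overlapped Day 0, and 2.18%, 1.84%, 1.29% and 1.51% at Day 3 (1.71% ± 0.388). At Day 7 it was 1.44%, 1.55%, 1.43% and 1.41%. Days 3 to 28 lay below every Day 0 library, at ratios of 0.493, 0.420, 0.576 and 0.517. By edgeR, 8 genes were lower and 1 higher at Day 3 (median -0.56), 12 lower at Day 7 (-1.23), 10 at Day 14 (-0.82) and 11 at Day 28 (-1.03). Among all genes tested, 49.1%, 14.3%, 10.9% and 3.49% were called on these days, and 23.3%, 4.51%, 2.62% and 0.606% as lower. Day 1 had no call by edgeR (17.9% of all genes called, 6.36% lower), with 4 of 13 at an unadjusted p under 0.05, and 1 call by DESeq2. Without the 3 FB libraries set apart, the calls were 4, 12, 13, 12 and 11 over the 5 days. In that fit 32.1%, 47.8%, 25.1%, 20.7% and 5.36% of all genes were called.

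mt-Nd2 fell most in FB at Day 7, from 1238, 1366, 1106 and 1412 CPM at Day 0 to 349, 418, 359 and 369 (-1.78 ± 0.28, adjusted p = 8.38e-05, edgeR). mt-Nd3 went from 638, 846, 573 and 819 CPM to 230, 225, 255 and 210 at Day 7 (-1.64 ± 0.18, adjusted p = 1.03e-06, edgeR) and 241, 339, 346 and 234 at Day 28 (-1.31). Neither gene overlapped with Day 0 on these days. mt-Co1 had 7492, 8572, 6538 and 8313 CPM at Day 0, 4882, 6322, 4413 and 3555 at Day 3 (-0.69 ± 0.19, adjusted p = 0.00525, edgeR), 3313, 3746, 3189 and 3411 at Day 7 (-1.18) and 3881, 4349, 4422 and 2257 at Day 28 (-1.05). All 3 days lay below Day 0, and the lowest value of Day 28 was replicate 4, a library set apart. mt-Cytb had 2310, 2525, 2128 and 2745 CPM at Day 0 and 978, 1047, 1028 and 1103 at Day 7 (-1.22 ± 0.16), and mt-Atp6, the largest fall called at Day 3, went from 3912, 4666, 3569 and 4347 to 3028, 2461, 1513 and 1841 (-0.90 ± 0.21). The gene that rose was mt-Nd6, described with the light-strand genes. At Day 28, 4 libraries each took the count of calls from 11 to 7 when left out (Day 0 replicates 1, 2 and 4 and Day 28 replicate 4), and at Day 14 leaving out replicate 3 took it from 10 to 6.

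In HC, the mitochondrial mRNAs were lower from the first day and stayed lower throughout. The sum was 4.94%, 5.25%, 4.72% and 4.34% at Day 1 (4.81% ± 0.384) and 4.24%, 4.24%, 4.30% and 4.03% at Day 3 (4.20% ± 0.118), ratios of 0.327 and 0.285 to Day 0. It was 7.53%, 7.55%, 7.94% and 7.56% at Day 14, and 7.93%, 2.65%, 6.48% and 5.51% at Day 28 (5.65% ± 2.23), where replicates 2 and 4 are libraries set apart. No library after infarction reached the lowest of Day 0. By edgeR, 13 genes were lower at Day 1 (median -1.55), Day 3 (-1.76) and Day 7 (-1.63), 11 at Day 14 (-1.06) and 12 at Day 28 (-1.38). Among all genes tested, 41.9%, 46.4%, 28%, 12.9% and 21.8% were called over the 5 days, and 23.8%, 23.1%, 13.9%, 6.8% and 10.4% as lower. Without the 2 libraries the calls were 13, 13, 13, 12 and 12, in a fit that called 46.9%, 51.7%, 33.7%, 16.3% and 11.3% of all genes. Leaving out Day 0 replicate 2 took Day 14 from 11 to 7.

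mt-Nd4l and mt-Co1 changed most in HC at Day 3, in part through replicate 4. mt-Nd4l went from 1195, 1820, 1437 and 1114 CPM at Day 0 to 434, 466, 400 and 126 at Day 3 (-1.96 ± 0.38, adjusted p = 0.000204, edgeR). mt-Co1 went from 25775, 36598, 30624 and 27837 CPM to 8721, 9993, 8851 and 4174 (-1.93 ± 0.31, adjusted p = 2.08e-05, edgeR), after 10952, 12554, 11278 and 8021 at Day 1 (-1.50 ± 0.30). Every library of Days 1 and 3 lay below Day 0, and replicate 4 lay lowest in both genes. mt-Cytb had no such library: it went from 8396, 12717, 12064 and 9431 CPM to 2881, 2819, 3098 and 3171 (-1.83 ± 0.25, adjusted p = 3.43e-06, edgeR). The ratio of mt-Co1 to mt-Cytb per kb was 2.24, 2.62, 2.12 and 0.975 at Day 3 and 1.87, 2.15, 1.81 and 0.688 at Day 28, so that replicate 4 stood apart on both days. In replicate 4 of Day 28, reads assigned to the nuclear copy Gm29216 were nearly as many as those of mt-Co1, as given above. Their part in this ratio was not tested. The ratio of mt-Nd4l to mt-Nd4 was 0.142 in replicate 4 of Day 3 and 0.154 in replicate 4 of Day 28, against 0.496 to 0.692 in the other libraries of these days. mt-Nd2 fell most at Day 7, from 4848, 8500, 7067 and 5298 CPM to 1490, 1436, 1998 and 1917 (-1.91 ± 0.31), without overlap. mt-Co2, a complex IV subunit gene, had the smallest fall called at Day 3 (-1.50) and Day 28 (-1.07).

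Markers of other cells moved with these falls in HC. The HC isolates of Day 0 held transcripts that are abundant in CM at 2.15% to 3.09% of reads outside rRNA genes (16 listed genes), and at 0.271% to 0.362% at Day 3. All 16 were lower by edgeR on every day, at Day 3 with a median of -2.97. At Day 3 the 4 CM markers, the 4 EC markers, the 4 FB markers and the 5 erythroid markers tested were lower too, and the 6 neutrophil markers were higher. Reads of the 13 protein genes per read of these CM transcripts were 5.62 to 6.26 at Day 0 and 11.7 to 15.9 at Day 3, so that the mitochondrial mRNAs fell by less than the CM transcripts. In EC, the CM transcripts took 1.42% to 2.02% at Day 0, 0.808% to 1.11% at Day 3 and 0.446% to 0.862% at Day 28, with 15 and 16 of the 16 lower on the later days, and 14 and 16 without the 3 EC libraries set apart. The part of other cells in the change of the mitochondrial genes was not tested.

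**Figure D3:**
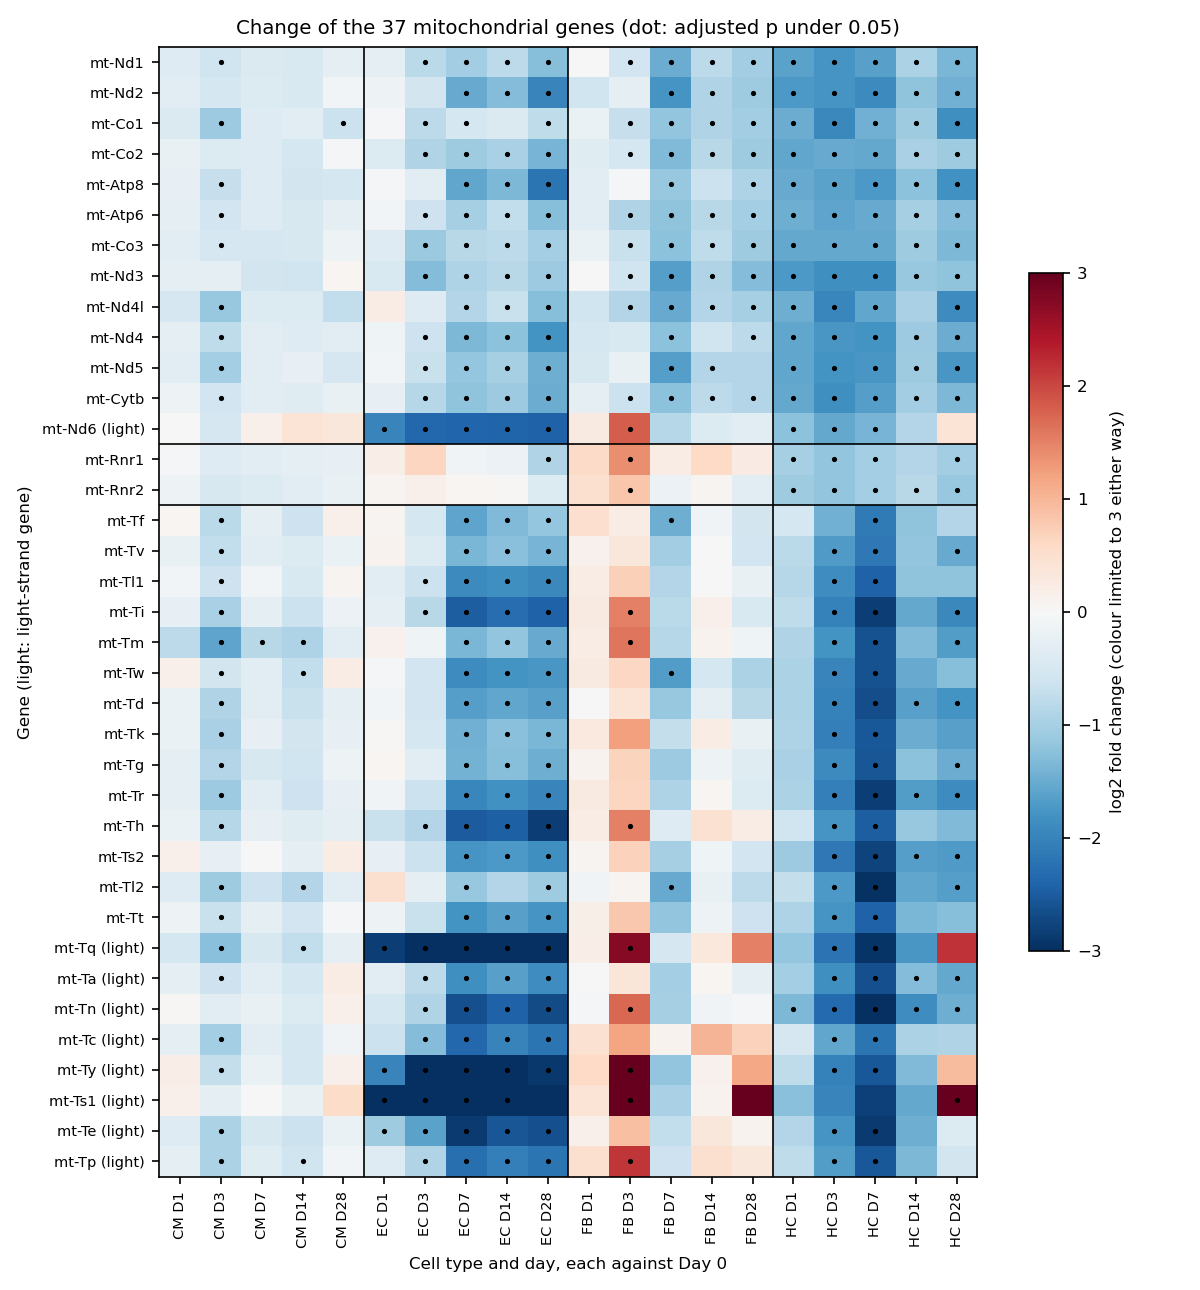
Log2 fold change against Day 0 (colour, limited to 3 either way) of each of the 37 mitochondrial genes (rows: protein genes, rRNAs, tRNAs, light-strand genes named as such) for each cell type and day (columns), with a dot where the edgeR adjusted p was under 0.05. Blue fills the HC and late EC columns, CM holds calls mainly at Day 3, and the light-strand genes stand apart in EC, in FB at Day 3 and in HC at Day 28.

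From one sampled day to the next, fewer changes were called than against Day 0. Over the 4 steps from Day 1 to Day 28 in 4 cell types, edgeR called 30 of 208 gene and step pairs among the protein genes, DESeq2 called 38, and edgeR without the 8 libraries called 42. In CM, mt-Co1 (-0.66), mt-Nd4l (-0.64) and mt-Nd5 (-0.68) were lower at Day 3 than at Day 1 (14.9% of all genes called), and the same 3 were higher at Day 7 than at Day 3 by 0.71, 0.72 and 0.71 (8.94% called). In EC, 5 genes were lower at Day 3 than at Day 1 (22.5% called), most mt-Nd3 (-0.83), or 9 without the libraries set apart (24.7% called). Another 3, mt-Atp8 (-1.24), mt-Nd2 (-0.97) and mt-Nd4 (-0.72), were lower at Day 7 than at Day 3 (23.2% called). In FB, 4 were lower and mt-Nd6 higher at Day 3 than at Day 1 (25.4% called), and 11 were lower at Day 7 than at Day 3 (36.1% called), most mt-Nd6 (-2.67), mt-Nd2 (-1.48) and mt-Nd5 (-1.42). Without the FB libraries set apart, 4 were lower and none higher on the first of these steps (14.7% called) and 10 lower on the other (33.1% called), with mt-Nd6 at -1.51. In HC edgeR called no step for a protein gene (12%, 19.8%, 3.27% and 3.01% of all genes called), with 0, 0, 7 and 4 of 13 at an unadjusted p under 0.05 over the 4 steps. Nor did it call one for the last steps, to Day 14 and then to Day 28, in CM (0.055% and 13.6% of all genes called, 0 and 1 of 13 at an unadjusted p under 0.05), EC (2.29% and 0.981%, 0 and 8 of 13) or FB (0.0482% and 3.03%, 9 and 1 of 13). This changed for the step from Day 7 to Day 14 without the libraries set apart. In HC, 6 protein genes were then higher at Day 14 than at Day 7 (median 0.57, 4.84% of all genes called), most mt-Nd2 (0.71), and in FB 4 were, mt-Nd2 (0.86), mt-Nd5 (0.75), mt-Nd3 (0.73) and mt-Nd1 (0.70), where 0.682% of all genes were called. Steps that share a day are not independent of each other.

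The change at Day 3 was then set, in the fit over all libraries, against the mean change of the other 3 cell types. In HC, 12 protein genes fell by more than in the other cell types (29.3% of all genes called), most mt-Nd2 (-1.18 ± 0.31, adjusted p = 0.002, edgeR), and mt-Nd6 was the exception. Both rRNAs fell by more as well, by 1.61 (mt-Rnr1) and 1.22 (mt-Rnr2) on the log2 scale. In CM, mt-Nd3 (1.06 ± 0.27, adjusted p = 0.0019, edgeR) and mt-Co3 (0.72, adjusted p = 0.012) changed upward against the mean change of the others (21.4% of all genes called). In FB, mt-Nd6 (2.94), mt-Rnr1 (1.44) and mt-Rnr2 (1.06) changed upward against the rest (33.7% called), and in EC mt-Nd4l did (0.95, adjusted p = 0.042, edgeR) while mt-Nd6 changed downward (-2.20, 16.5% called). Without the 8 libraries no protein gene was called in EC (6.88% of all genes called), with mt-Nd4l at 0.91 (adjusted p = 0.088, edgeR) and mt-Nd6 at 0.18. mt-Nd6 was then still called higher in FB (1.37, adjusted p = 0.00633, edgeR, 20.2% of all genes called). Of the FB Day 3 libraries left, replicate 4 lay above Day 0 and replicate 1 within its range. In HC, mt-Nd6 joined the other 12 (-1.42, adjusted p = 0.000782, edgeR, 30.4% called), and the same genes were called in CM (25.3% called).

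mt-Nd6 and the 8 light-strand tRNAs varied apart from the 12 heavy-strand mRNAs, chiefly between libraries of one group. mt-Nd6 per kb was 1.82%, 1.89%, 1.76% and 2.51% of the mean of the other 12 in CM at Day 0, 5.74%, 5.77%, 5.88% and 6.52% in HC, and 8.11%, 8.58%, 9.10% and 10.3% in FB. In EC at Day 0 it was 29.0%, 25.5%, 4.05% and 4.50%. Replicates 1 and 2 stood above every other EC library, and CM, HC and FB did not overlap at Day 0. FB at Day 3 gave 12.6%, 54.2%, 92.8% and 36.0%, so that replicate 4, which was not among the 8, lay high too. HC at Day 28 gave 5.76%, 46.1%, 8.02% and 44.3%, EC at Day 28 gave 15.4% in replicate 3, and FB at Day 28 gave 32.9% in replicate 4. In HC Day 3 replicate 4 the share was 1.03%, below the 7.71% to 10.1% of the other 3.

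The calls of mt-Nd6 in EC rested on these libraries, and those in FB and HC did so in part or not at all. In EC it had 3004, 3616, 380 and 506 CPM at Day 0 and 363, 493, 578 and 469 at Day 1, and was called lower on all 5 days (from -1.98 ± 0.49 at Day 1 to -2.43 ± 0.49 at Day 28, adjusted p = 0.00815 and 0.000845, edgeR). The days overlapped. Without the 3 EC libraries the changes were 0.10, -0.28, -0.30, -0.31 and -0.56, none of them called. In FB it had 121, 148, 120 and 177 CPM at Day 0 and 133, 735, 823 and 327 at Day 3 (1.82 ± 0.38, adjusted p = 0.000537, edgeR), and 0.70 without replicates 2 and 3 (adjusted p = 0.0488, edgeR). Of the FB Day 3 libraries then left, replicate 4 (327 CPM) lay above Day 0 and replicate 1 (133 CPM) did not. In HC mt-Nd6 had 293, 453, 413 and 371 CPM at Day 0 and 142, 197, 186 and 125 at Day 1 (-1.23, adjusted p = 0.0463, edgeR), a call that 19 of the single libraries undid when left out. At Day 3 it had 167, 188, 151 and 23.7 CPM (-1.53 ± 0.49, adjusted p = 0.0135, edgeR).

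**Figure D4:**
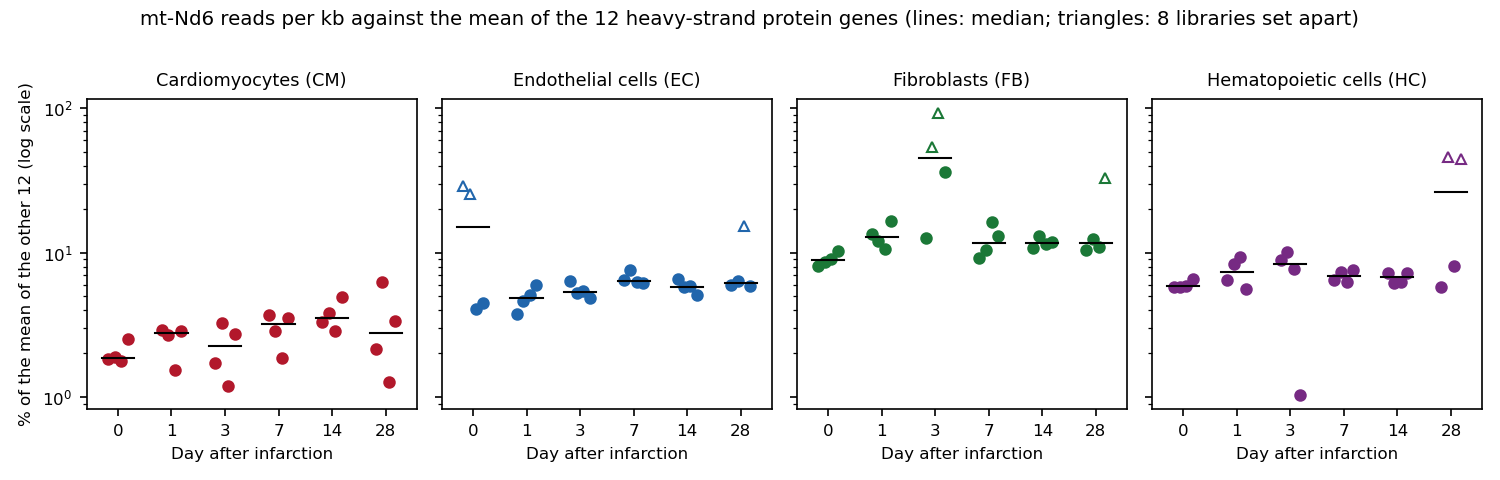
Reads per kb of the light-strand gene mt-Nd6 as a percent of the mean of the 12 heavy-strand protein genes (vertical axis, log scale) against the day after infarction, with a point for each library, lines for the median and open triangles for the 8 libraries set apart. CM lie between 1.19% and 6.23%, the other libraries of EC between 3.75% and 7.59%, and the triangles between 15.4% in EC at Day 28 and 92.8% in FB at Day 3.

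The tRNA reads showed the same split between strands. Reads of the 8 light-strand tRNAs per read of the 14 heavy-strand tRNAs were 4.31 and 5.76 in EC Day 0 replicates 1 and 2 and 0.570 and 0.558 in replicates 3 and 4. They were 3.67 in EC Day 28 replicate 3, 1.45 and 1.33 in FB Day 3 replicates 2 and 3, 6.41 in FB Day 28 replicate 4, and 2.56 and 38.3 in HC Day 28 replicates 2 and 4. The other EC, FB and HC libraries lay between 0.428 and 0.934. mt-Ts1, the serine tRNA gene opposite the end of mt-Co1, carried most of it. In CPM outside rRNA genes it had 13440, 12670, 94.1 and 60.7 in EC at Day 0, and 16.8, 30.2, 2440 and 19.1 at Day 28. In FB it had 3.75, 213, 181 and 10.6 at Day 3 and 4.50, 6.37, 4.07 and 1453 at Day 28, and in HC 5.72, 2312, 10.7 and 3927 at Day 28. In CM, by contrast, no library left the range from 211 to 490. mt-Tq, the glutamine tRNA gene opposite mt-Ti, stood out in the same EC libraries, with 2742, 2477, 347 and 233 CPM outside rRNA genes at Day 0.

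The fits reflect this. mt-Ts1 was the tRNA with the largest change called in EC at Day 7 (-8.58 ± 1.90, adjusted p = 0.0018, edgeR), in FB at Day 3 (4.73 ± 1.63, adjusted p = 0.021) and in HC at Day 28 (5.45 ± 1.23, adjusted p = 0.0031). In HC at Day 28 it stood at -2.20 without replicates 2 and 4 (adjusted p = 0.00449, edgeR), the opposite direction. mt-Tq (-4.94) and the tyrosine tRNA gene mt-Ty (-3.83) followed in EC at Day 7. In EC at Day 3, 8 of 8 light-strand tRNAs and 3 of 14 heavy-strand tRNAs were lower, and in FB at Day 3, 5 of 8 and 3 of 14 were higher. Among all genes, 22.3% were lower in EC and 25.8% higher in FB, so that both heavy-strand counts lay near or below these shares. Without the 8 libraries, 3 of the 22 tRNAs were lower in EC at Day 3 (31.4% of all genes called) and none was called in FB at Day 3 (47.8%).

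Without the 8 libraries, the median change of the tRNAs lay below that of the mRNAs in EC on all 5 days and in HC from Day 3. In EC the 2 medians were close at Day 1 (-0.17 against -0.05) and Day 3 (-0.68 against -0.60). In HC at Day 1 the tRNA median lay above that of the mRNAs (-0.92 against -1.55). In FB the tRNAs were not lower with the mRNAs on Days 3 and 14: at Day 3 their median was 0.29 with 0 of 22 called, where 11 of 13 mRNAs were lower, and at Day 14 it was 0.08 with 0 called, where 12 were lower. At Day 7 the FB tRNA median was -0.93 with 3 lower (mRNAs -1.18), and at Day 28 it was -0.52 with 0 called (mRNAs -0.84). Mature tRNAs are short, folded and chemically modified, and precursor and mature forms are not told apart in these counts. In CM, 19 of 22 were lower at Day 3 (median -0.87), most the methionine tRNA gene mt-Tm (-1.57 ± 0.27, adjusted p = 8.5e-05, edgeR), mt-Tq (-1.25) and mt-Tr (-1.08). No tRNA was called by edgeR on Day 1 or Day 28 (2 and 1 of 22 at an unadjusted p under 0.05), 1 was lower at Day 7 and 5 at Day 14. Of all genes in CM, 14.6% were lower at Day 3, 4.33% at Day 7 and 5.71% at Day 14. The tRNA count of Day 7 thus lay near the share of all genes. On Days 1 and 28, 11.4% and 3.58% of all genes were called. The most abundant tRNA genes in CM were mt-Tn (835 CPM), mt-Th (602) and mt-Ts2 (581). In EC, 22 were lower at Day 7 (median -1.90), 21 at Day 14 and 21 at Day 28 (-1.89), and 21, 20 and 20 without the libraries set apart (22.2%, 9.6% and 17.3% of all genes called). With all EC libraries, 19.6%, 14.3% and 17.4% of all genes were lower on these days. In HC, 20 were lower at Day 3 (median -1.89) and 21 at Day 7 (-2.62), led on both days by the asparagine tRNA gene mt-Tn (-2.33 ± 0.45 and -3.22 ± 0.47), then 5 at Day 14 and 10 at Day 28. Of all genes, 23.1%, 13.9%, 6.8% and 10.4% were lower in HC on these days. Without HC Day 28 replicates 2 and 4, the counts were 6, 22, 22, 15 and 21 over the 5 days (46.9%, 51.7%, 33.7%, 16.3% and 11.3% of all genes called). In FB, 3 were lower at Day 7, most the tryptophan tRNA gene mt-Tw (-1.69), and edgeR called none on Days 1, 14 and 28 (0, 0 and 1 of 22 at an unadjusted p under 0.05). Of all genes in FB, 4.51% were lower at Day 7, and 17.9%, 10.9% and 3.49% were called on Days 1, 14 and 28.

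The mitochondrial rRNAs, which the depletion step reaches, are set apart from the mRNAs. mt-Rnr1 encodes the small and mt-Rnr2 the large rRNA of the mitochondrial ribosome. In CM neither was called on any day (mt-Rnr1 -0.39 and mt-Rnr2 -0.47 at Day 3, adjusted p = 0.142 and 0.0684, edgeR). In HC both were lower at Days 1, 3, 7 and 28. mt-Rnr1 went from 52284, 84380, 72469 and 48064 CPM at Day 0 to 31197, 27996, 30649 and 22480 at Day 3 (-1.20 ± 0.31, adjusted p = 0.00325, edgeR), and mt-Rnr2 fell by 1.18 on the log2 scale. At Day 14, mt-Rnr2 alone was called (-0.82), with mt-Rnr1 at -0.88 (adjusted p = 0.0693, edgeR). In FB both rose at Day 3 while the mRNAs fell. mt-Rnr1 went from 8392, 10912, 9919 and 13779 CPM to 18134, 31763, 24174 and 38968 (1.39 ± 0.32, adjusted p = 0.00128, edgeR) and mt-Rnr2 from 29527, 36361, 31546 and 42822 to 49407, 68766, 57884 and 72250 (0.82 ± 0.25, adjusted p = 0.00888, edgeR), both without overlap. Without replicates 2 and 3 they were still higher (1.42 and 0.81, adjusted p = 0.00476 and 0.026, edgeR). On log2(TPM + 1) both changes were below 0, at -0.08 and -0.70. In EC only mt-Rnr1 at Day 28 was called (-0.91 ± 0.29, adjusted p = 0.0194, edgeR), a call lost without Day 0 replicate 4 or Day 28 replicate 3.

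Reads of both rRNAs per read of the 12 heavy-strand mRNAs rose in the non-muscle cells. The ratio was 0.659, 0.553, 0.748 and 0.798 in EC at Day 0, 1.01, 1.31, 1.16 and 2.09 at Day 3. At Day 28 it was 1.18, 1.04, 1.21 and 1.12. FB had 1.30, 1.41, 1.59 and 1.67 at Day 0, 3.37, 3.84, 4.65 and 6.57 at Day 3. At Day 14 it was 3.14, 3.10, 3.02 and 2.98. HC had 1.88, 1.86, 1.91 and 1.66 at Day 0 and 2.81, 2.57, 2.67 and 2.61 at Day 3. Each later day named lay above Day 0. In CM it was 3.01, 3.15, 3.17 and 3.15 at Day 0 and overlapped Day 0 on every day but Day 1 (3.24 to 3.95). The reads of mt-Rnr1 per kb against those of mt-Rnr2 were 0.481 to 0.521 in EC at Day 0 and 0.348 to 0.363 at Day 28, and 0.471 to 0.533 in FB at Day 0 and 0.608 to 0.893 at Day 3, again without overlap. On deposited TPM this ratio was 1.84 in CM, 1.38 in EC, 1.37 in HC and 0.891 in FB at Day 0. How evenly the depletion acted in each library was not tested.

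The nuclear genes of the same complexes were higher in FB at Days 1 and 3, and those called in EC and HC were nearly all lower. Of 73 listed nuclear subunit genes, 72 were tested. In EC, 55 were lower at Day 3 and 71 at Day 28 (medians -0.70 and -1.55), and none higher. Without the 3 EC libraries set apart the counts were 13 and 65 (medians -0.42 and -1.16), beside 31.4% and 17.3% of all genes called in either direction. In HC, 29 were lower and 2 higher at Day 3 (-0.46). In CM, 9 were lower and 1 higher at Day 3 (-0.10), among the former Uqcrc1 of complex III (-1.28), Cox7c of complex IV (-0.70), Ndufs1 of complex I (-0.58) and Atp5a1, the ATP synthase alpha subunit gene (-0.54). Both CM counts lay below the shares of all genes at Day 3, of which 14.6% were lower and 16% higher. At Day 14, 21 were lower in CM (-0.54). No mitochondrial mRNA was called by edgeR then, but 6 of 13 had an unadjusted p under 0.05, and the replicate block called 6 (median -0.44). In FB, 33 were higher at Day 1 (0.52, beside 11.6% of all genes) and 48 at Day 3 (0.66, beside 25.8% of all genes), none lower, while 8 of the 13 mitochondrial genes were lower at Day 3. Without the FB libraries set apart, 57 were higher and 1 lower at Day 1, and 63 higher and 1 lower at Day 3. On Days 7, 14 and 28 none was higher in FB and 5, 1 and 5 were lower (medians -0.32, -0.14 and -0.45), or 14, 2 and 30 without those libraries, beside 1 higher at each of Days 7 and 14. The background shares, with all libraries and without those set apart, are those given with each comparison above.

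By complex at Day 3, FB had 23 of 36 nuclear complex I genes higher, 6 of 9 of complex III, 8 of 13 of complex IV and 11 of 14 of the ATP synthase. EC had 29, 8, 8 and 10 of these lower, or 6, 2, 3 and 2 without the 3 libraries set apart, HC 13, 4, 6 and 6 lower with 2 complex IV genes higher, and CM 4, 2, 1 and 2 lower with 1 complex IV gene higher. Among all genes at Day 3, 25.8% were higher in FB, and 22.3% (EC), 23.1% (HC) and 14.6% (CM) were lower. Without the EC libraries set apart, 31.4% of genes were called in either direction. Among the FB genes were Ndufa3 of complex I (1.68, adjusted p = 2.53e-06, edgeR), Uqcrq of complex III (1.20), and the ATP synthase genes Atp5c1 (1.35) and Atp5a1, at 190 ± 11.7 CPM on Day 0 and 482 ± 191 on Day 3 (SD, n = 4). The muscle isoforms of complex IV, Cox6a2 (3.06), Cox7a1 (2.78) and Cox8b (2.58), were higher in FB at Day 3 as well, with an SD larger than the mean, but without replicates 2 and 3 they stood at -0.55, -0.67 and -1.41, the last called lower (adjusted p = 0.0167, edgeR). In HC these 3 were lower (-2.47, -2.88 and -2.87), beside Ndufs1 (-1.34, adjusted p = 3.75e-08, edgeR), Uqcrfs1 of complex III (-1.26) and Atp5b, the ATP synthase beta subunit gene (-0.78). In EC, Cox7a1 fell most of the complex IV genes (-1.68), and Atp5k (-1.18), Ndufb10 (-1.08) and Uqcr11 (-1.07) most of theirs. Of these 4, Cox7a1 alone was called without the 3 EC libraries (-1.28). Of the 16 abundant CM transcripts, 14 were higher in FB at Day 3 (median 2.69), and without replicates 2 and 3, 1 was higher and 5 lower (-1.17). The part of CM transcripts in the values of these isoforms was not tested.

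As a balance of the genomes, reads of the 13 mitochondrial genes per read of the nuclear chain genes were 16.0, 9.38, 19.4 and 12.4 in CM at Day 0 and 12.2, 10.5, 10.4 and 7.12 at Day 3, and they overlapped Day 0 on every day. EC libraries lay between 22.4 and 40.7 throughout and also overlapped on every day, as both sets fell. FB went from 9.75, 10.9, 9.45 and 11.3 at Day 0 to 5.34, 6.38, 5.75 and 5.84 at Day 1 and 4.60, 4.72, 3.92 and 2.97 at Day 3. FB at Day 7 gave 4.94, 6.29, 4.49 and 4.99. All 3 days lay below Day 0, Day 1 included. At Day 1 edgeR called no mitochondrial mRNA in FB, or 4 lower without the libraries set apart. HC went from 16.4, 18.2, 15.9 and 15.1 at Day 0 to 9.19, 10.5, 8.95 and 6.88 at Day 1 and 7.86, 9.73, 8.06 and 4.74 at Day 3, and was at 14.4, 12.7, 11.5 and 13.1 on Day 14, still below Day 0. The ratios to the Day 0 mean were 0.563, 0.392, 0.501, 0.646 and 0.672 over the 5 days in FB, where Day 14 overlapped Day 0, and 0.541, 0.464, 0.633, 0.789 and 0.577 in HC, where no day did.

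**Figure D5:**
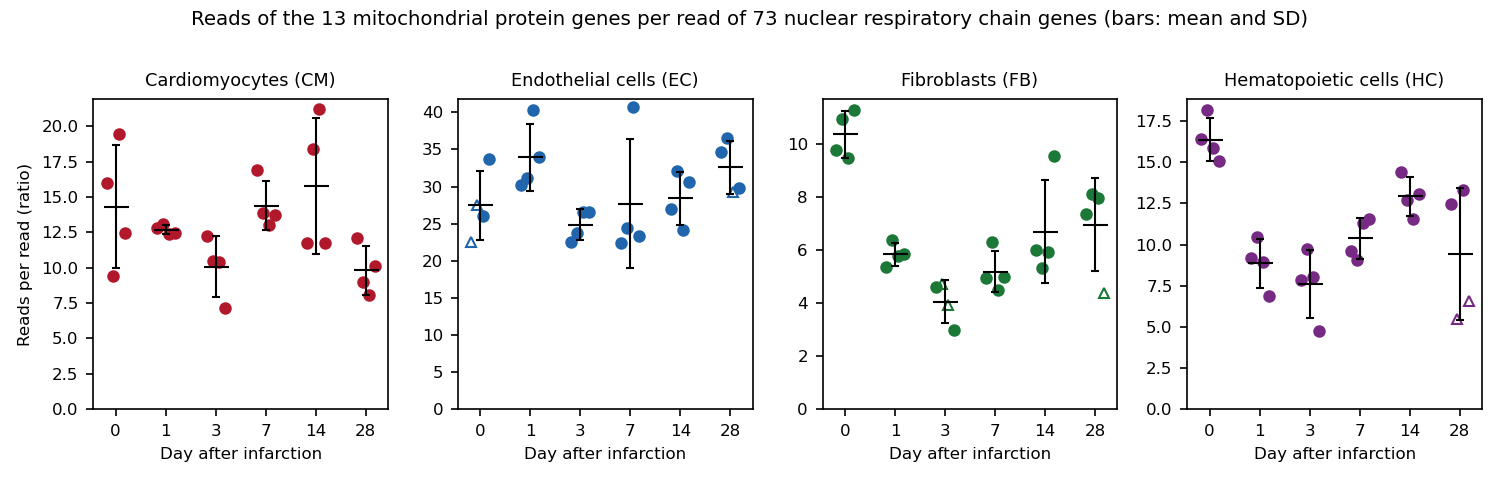
Reads of the 13 mitochondrial protein genes per read of the 73 listed nuclear respiratory chain genes (vertical axis, from 0, a scale of its own in each panel) against the day after infarction, with a point for each library, bars for the mean and SD of 4 libraries and open triangles for the 8 libraries set apart. CM and EC overlap Day 0 on every day, whereas FB fall from 9.45 to 11.3 at Day 0 to 2.97 to 4.72 at Day 3, and HC from 15.1 to 18.2 to 4.74 to 9.73.

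Nuclear genes that act on mitochondrial DNA and RNA were listed in 3 groups of 41 genes in all. Among all genes tested at Day 3, 16% were higher and 14.6% lower in CM, 23.2% and 22.3% in EC, 25.8% and 23.3% in FB, and 23.3% and 23.1% in HC, and several of the counts that follow lie near or below these shares. Without the libraries set apart, 31.4% (EC), 47.8% (FB) and 51.7% (HC) of genes were called in either direction. Of 16 genes for transcription and DNA maintenance, CM had 9 lower and none higher at Day 3 (median -0.41), among them the replicative helicase gene Twnk (-0.89), the polymerase gamma accessory subunit gene Polg2 (-0.63) and the rRNA methyltransferase gene Tfb1m (-0.55). EC had 6 lower, most Mterf3 (-1.58), a regulator of mitochondrial transcription and translation, and 1 higher, the mitochondrial RNA polymerase gene Polrmt (0.71), a median of -0.26, but without the 3 EC libraries 3 were lower and Polrmt was not called (0.50). FB had 4 higher, among them the ribosomal protein gene Mrpl12 (1.28) and the topoisomerase gene Top1mt (1.21), and 2 lower, with Polg2 at -0.93. HC had 2 of 16 lower, Mterf2 (-1.92) and the exonuclease gene Mgme1 (-0.36).

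Of 17 genes for RNA processing and turnover, CM had 8 lower, with the RNA helicase gene Supv3l1 (-0.73) and the mRNA stability factor gene Lrpprc (-0.65) first. EC had 4 higher and 3 lower, FB 6 higher and 3 lower, and HC 5 higher and 4 lower, with medians of -0.12, 0.15 and -0.02. Without the libraries set apart these counts were 2 and 4, 9 and 1, and 6 and 4. Those with the largest changes were, in EC, Fastk (-0.52), Rexo2 (0.50) and the tRNA 3′ processing gene Elac2 (0.47), in FB the phosphodiesterase gene Pde12 (-1.06), the RNA granule protein gene Grsf1 (0.80) and the poly(A) polymerase gene Mtpap (-0.70, and -0.23 and not called without the FB libraries set apart), and in HC the oligoribonuclease gene Rexo2 (1.10), with Lrpprc at -0.61. Of 8 nuclear activators, HC had 3 lower, the fatty acid oxidation regulator gene Ppara (-2.84) and the coactivator genes Ppargc1a (-2.38) and Ppargc1b (-1.12), and 1 higher. EC had 4 lower, with Ppargc1b at -1.48, Ppara at -1.09 and Ppargc1a at -0.79 (of these named genes, Ppargc1b alone was called without the libraries set apart, at -1.08), CM had 2 lower (Gabpa -0.48, Ppara -0.43), and FB had 1 higher, the nuclear receptor gene Esrra (0.97), and 2 lower, Gabpb1 (-0.55) and Gabpa (-0.48), the last not called without replicates 2 and 3 (-0.27).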

How the data were processed

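Total RNA of 96 libraries (4 cell types, 6 days, 4 libraries per group) was analysed from the quantification tables deposited for each library. Per the submitters' processing notes, reads were handled with Trim Galore, STAR and Salmon on mm10. The strand setting is not given in the sources used here. The authors deposited Salmon's estimated counts and TPM, in 40 files per gene and in 56 per transcript, and transcript values were summed to genes. Rows without a gene held at most 0.363% of the reads of a library and were left out. TPM divides by effective lengths, which were 3 bases for tRNAs and 10 for mt-Atp8. A total of 0 columns of other samples were found.

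Tests ran on the estimated counts, rounded to integers, by the edgeR quasi-likelihood test (edgeR 4.0.16, R 4.3.3) with TMM scaling over all genes that passed filterByExpr, with day as a factor in each cell type. A fit over all libraries with group as a factor served the comparisons between cell types. P-values were adjusted by Benjamini-Hochberg over all genes tested in a comparison. The script was tested on simulated data. Sums, ratios and shares are descriptions with no test. The members, the gene lists and the tests were chosen with earlier results of these data known. Of the protein genes, the text always names mt-Co1, mt-Cytb, mt-Nd6 and mt-Atp6 and the largest and smallest called change, with both rRNAs, the 3 most abundant tRNAs of a cell type in part and the tRNAs with the largest called change. Of each nuclear list it names up to 3 called genes with the largest change at Day 3, taken per respiratory complex for the nuclear subunits. Genes and libraries outside this rule were named after their values were seen. Nuclear copies are nuclear genes that matched a mitochondrial gene by blastn at 95% identity over 80% of their length.

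Alternatives were DESeq2 1.42.0, other scalings, no filter, limma 3.58.1 on log2(TPM + 1) and log2(TPM + 0.1), nuclear copies added, the replicate number as a block, each library left out in turn and the 8 libraries left out. Reads per kb in place of TPM, and the sums without the 8 libraries, were chosen after seeing the data. Whether replicate numbers pair libraries was checked by correlating deviations from group means. Between days of one cell type, same-numbered libraries had a median r of 0.156 in CM (lowest -0.0756), 0.0354 in HC, -0.0115 in EC and -0.00593 in FB. Libraries with different numbers had -0.0746 in CM (lowest -0.461), -0.0101 in HC, 0.0044 in EC and 0.00538 in FB. Same-numbered libraries were thus more alike in CM, and the medians were close in the other cell types. The main tests do not pair libraries by number, which leaves the likeness in CM out of the model. At 2663759 to 55693039 gene reads per library, counting error was small for the mRNAs and larger for tRNAs, whose counts in FB were low.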

Additional observations from a re-analysis of the deposited data

Results flagged for a closer look

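Over 4 measures and 24 groups, 10 of 96 groups of 4 held a library whose gap to its nearest neighbour was large for the range of its group, where chance alone gives about 1 in 20. The summed mitochondrial mRNAs were 7.94% of reads outside rRNA genes in HC Day 14 replicate 3, against 7.53% to 7.56% in the others. mt-Nd6 per kb was 2.51% of the mean of the other 12 in CM Day 0 replicate 4 (others 1.76% to 1.89%), 15.4% in EC Day 28 replicate 3 (5.88% to 6.34%) and 32.9% in FB Day 28 replicate 4 (10.4% to 12.4%). rRNA reads per heavy-strand mRNA read were 3.01 in CM Day 0 replicate 1 (3.15 to 3.17) and 0.702 in EC Day 1 replicate 1 (0.869 to 0.879). Light-strand per heavy-strand tRNA reads were 0.651 in CM Day 1 replicate 1 (0.58 to 0.584), 3.67 in EC Day 28 replicate 3 (0.446 to 0.474), 6.41 in FB Day 28 replicate 4 (0.618 to 0.769) and 38.3 in HC Day 28 replicate 4 (0.5 to 2.56).

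The change at Day 3 differed between cell types, by an edgeR contrast with the mean change of the other 3, for 2 protein genes in CM (largest mt-Nd3, 1.06), for mt-Nd4l (0.95) and mt-Nd6 (-2.20) in EC, for mt-Nd6 in FB (2.94) and for 12 in HC (largest mt-Nd2, -1.18). Among all genes tested, 21.4% (CM), 16.5% (EC), 33.7% (FB) and 29.3% (HC) were called. The counts in CM, EC and FB thus lay below the share of all genes. Without the 8 libraries set apart, none was called in EC, mt-Nd6 was in FB (1.37) and 13 were in HC (6.88%, 20.2% and 30.4% of all genes called). Of the FB Day 3 libraries then left, replicate 4 alone lay above Day 0 for mt-Nd6.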

How the results depend on the processing

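Over 5 days and 13 protein genes, edgeR called 62 gene and day pairs in HC, 49 in EC, 42 in FB and 10 in CM. CM was the least stable: 3 without TMM on library sizes outside rRNA genes, 0 by limma on log2(TPM + 1) and on log2(TPM + 0.1), and 3 to 11 with a library left out (lowest without Day 0 replicate 3). EC gave 10 on both TPM scales and 44 to 50, HC 35 on log2(TPM + 1), 36 on log2(TPM + 0.1) and 56 to 63, and FB 23 on log2(TPM + 0.1) and 35 to 44. The 13 genes higher in CM at Day 0 stayed 13, the 2 genes whose change at Day 3 differed in CM became 7 without TMM, 11 on log2(TPM + 1) and 1 to 2 without a replicate, and the 30 calls between successive days became 26 to 36 with a library left out and 22 to 42 otherwise. Without TMM, the median change of all genes moved by over 0.1 in several comparisons, such as to 0.17 in CM at Day 3, 0.36 in EC at Day 28 and -0.39 in FB at Day 3.

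With the replicate block, CM had 22 calls (11 at Day 3, 6 at Day 14, 3 at Day 7 and 2 at Day 28) and the other counts were 47 (EC), 41 (FB), 60 (HC), 13, 2 and 32. The main tests do not take libraries that share a number as paired. Same-numbered CM libraries were more alike between days (median r 0.156) than those with different numbers (-0.0746).

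The sums relative to Day 0 were 0.761 (CM Day 3), 0.632 (EC Day 3), 0.522 (EC Day 28), 0.493 (FB Day 3), 0.517 (FB Day 28) and 0.285 (HC Day 3). As a share of TPM they were 1.03, 0.810, 0.679, 0.282, 0.349 and 0.351, and with a library left out they ranged over 0.710 to 0.843, 0.599 to 0.672, 0.483 to 0.564, 0.447 to 0.532, 0.489 to 0.568 and 0.272 to 0.303 (CM Day 28: 0.766 to 0.897, HC Day 28: 0.332 to 0.451). At Day 0, mt-Nd6 relative to the other 12 moved from its TPM values to 1.28% (CM), 5.52% (FB) and 3.59% (HC) in reads and 2.00%, 15.8% (EC, resting on replicates 1 and 2, which are libraries set apart), 9.03% and 5.98% per kb, with ranges on TPM of 0.695% to 0.815%, 4.98% to 8.69%, 4.52% to 4.93% and 2.62% to 2.82% for CM, EC, FB and HC. mt-Rnr1 to mt-Rnr2 moved to 0.506, 0.300, 0.305 and 0.374 in reads and 0.838, 0.498, 0.505 and 0.620 per kb, with ranges on TPM of 1.76 to 1.90, 1.28 to 1.42, 0.858 to 0.913 and 1.31 to 1.44.

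Of 94 gene results, 28 kept direction and call under every alternative, and 24 lost the call, with none reversed, when 1 library was left out. DESeq2 and the added copies each changed none. Both TPM scales reversed 13: in CM at Day 3 mt-Atp6 (0.12), mt-Co3 (0.16) and mt-Cytb (0.42), in EC mt-Atp6 (0.047 at Day 7, 0.35 at Day 14), mt-Co1 (0.40 at Day 7, 0.021 at Day 28), mt-Cytb (0.24 at Day 7, 0.060 at Day 14) and mt-Nd4l (0.41 at Day 14), and in FB at Day 3 mt-Nd6 (-0.49), mt-Rnr1 (-0.083) and mt-Rnr2 (-0.70). Leaving out the 8 libraries reversed mt-Nd6 in EC at Day 1 (0.10) and mt-Ts1 in HC at Day 28 (-2.20), and ended 13 further calls: in EC mt-Nd6 at Days 3, 7, 14 and 28, mt-Ts1 at Days 1 and 3, mt-Atp6 at Days 3 and 14, mt-Co1 at Days 7 and 28, mt-Nd4l at Day 14 and mt-Rnr1 at Day 28, and in FB mt-Ts1 at Day 3. Apart from the effective lengths behind TPM and the libraries left out, the cause was not tested.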
